A study of Rattus norvegicus with 3 samples.

Results

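Levels of 6 transcripts that encode leukocyte-attracting or leukocyte-binding proteins were examined in a rat beta-cell line: the chemokines Cxcl1, Cxcl10, Ccl5 and Ccl2 and the adhesion molecules Icam1 and Vcam1. They were chosen by Ensembl gene ID, and all 6 IDs were found among the 34340 gene models listed for each library: ENSRNOG00000002802 (Cxcl1), ENSRNOG00000022256 (Cxcl10), ENSRNOG00000010906 (Ccl5), ENSRNOG00000007159 (Ccl2), ENSRNOG00000020679 (Icam1) and ENSRNOG00000014333 (Vcam1). The symbols came with the list of IDs. The files do not pair IDs with symbols, and 0 IDs could be matched through the RefSeq table used here, so the names rest on the list and no annotation went against them.

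INS-1 832/13 cells, a clonal line which stems from a rat insulinoma and secretes insulin in response to glucose, overexpressed NIK, NIK(KA) or β-Gal, with 1 RNA sequencing library for each. NIK is NF-κB-inducing kinase. The labels do not say what NIK(KA) is; in published work the name stands for a form without kinase activity. β-Gal (β-galactosidase, an enzyme often used as a control protein) was the control. The labels do not give the means of overexpression or its duration, and no library of cells without an overexpressed protein was analysed here. The libraries held 15095979 reads for NIK, 14349721 for NIK(KA) and 17457498 for β-Gal, as worked out from the deposited values. With 1 library for each protein there is no replicate error and no test, and every difference below is between libraries. The level of the gene of NIK and the markers of beta cells and of other cells could not be looked up without symbols, so neither the overexpression nor the cell type was checked.

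NIK is the upstream kinase of the non-canonical NF-κB pathway, in which it leads to processing of p100 to p52, and when abundant it can also drive the canonical pathway. NF-κB dimers enter the nucleus and bind short DNA elements called κB sites. All 6 genes examined are textbook NF-κB targets in inflamed tissue. In pancreatic islets, beta cells exposed to inflammatory cytokines make chemokines of this kind, which draw in leukocytes. ICAM-1 and VCAM-1 on a cell surface are held by leukocyte integrins.

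The 4 chemokines differed widely in level. Cxcl1, which encodes a CXC chemokine that attracts neutrophils through the receptor CXCR2, had 366 FPKM in the NIK library (5112 reads), 5.79 FPKM in the NIK(KA) library (77 reads) and 37.3 FPKM in the β-Gal library (603 reads). FPKM is a read number per length of the gene model and per library total, so it can be set side by side between genes. Cxcl1 was thus high in NIK, middling in β-Gal and low in NIK(KA). Cxcl10, an interferon-inducible chemokine that attracts activated T cells through CXCR3, had 137 FPKM in NIK (2347 reads), 6.58 FPKM in NIK(KA) (107 reads) and 29.7 FPKM in β-Gal (587 reads), the same order of the libraries.

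The other 2 chemokines were near or at 0 outside the NIK library. Ccl5, also called RANTES, which attracts T cells and monocytes, had 5.71 FPKM in NIK (47 reads). It was read 0 times in both NIK(KA) and β-Gal, which allows a level of up to 0.384 FPKM in NIK(KA) and 0.315 FPKM in β-Gal (3 reads each). Ccl2, the monocyte chemoattractant that acts through CCR2, had 2.54 FPKM in NIK (32 reads). It was read 0 times in NIK(KA), which allows up to 0.250 FPKM, and had 0.274 FPKM in β-Gal (4 reads). Ccl2 was the only one of the 6 transcripts that did not reach 5 FPKM in any library.

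The adhesion molecules showed both patterns. Icam1, which encodes a ligand of the leukocyte integrins LFA-1 and Mac-1, had 296 FPKM in NIK (11821 reads), 8.91 FPKM in NIK(KA) (338 reads) and 14.2 FPKM in β-Gal (656 reads). Its level in NIK was far above its levels in NIK(KA) and β-Gal, which were of similar order to each other. Vcam1, which encodes a ligand of the integrin VLA-4, had 11.7 FPKM in NIK (155 reads) and 0.0795 FPKM in NIK(KA) (1 read). It was read 0 times in β-Gal, which allows up to 0.196 FPKM. Read numbers are the lowest that give the deposited values and are thus lower limits. The bulk values do not tell more RNA per cell from a larger share of cells with that RNA.

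**Figure D1:**
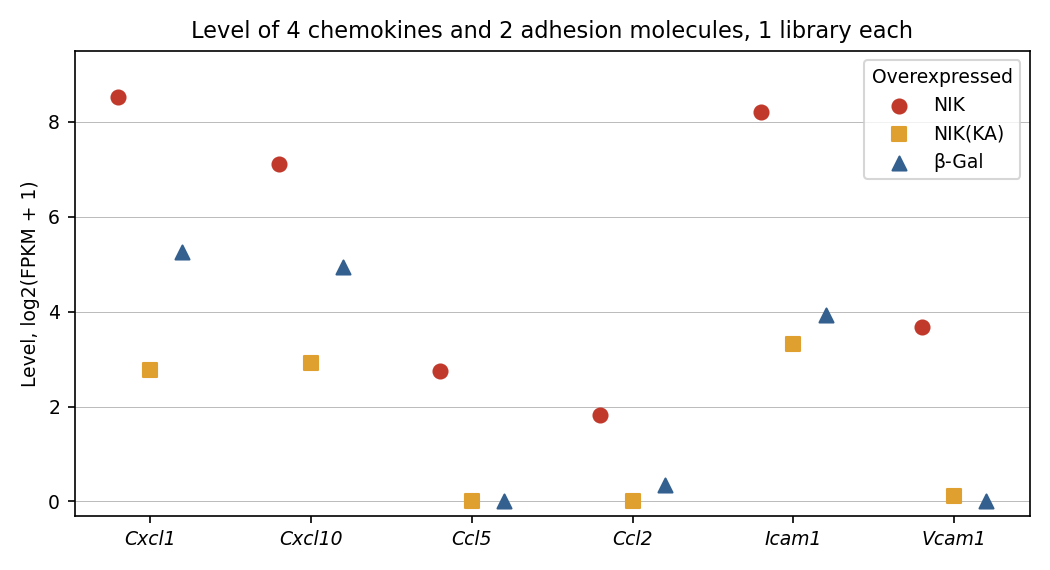
Level of each transcript on the log2(FPKM + 1) scale in the NIK (circles), NIK(KA) (squares) and β-Gal (triangles) libraries, 1 library each and so without error bars. The NIK library is highest for all 6 transcripts, and Cxcl1 and Cxcl10 lie lowest in NIK(KA).

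The order of the 6 transcripts was not the same in the 3 libraries. In NIK, Cxcl1 was highest, followed by Icam1, Cxcl10, Vcam1, Ccl5 and Ccl2, and the exact 95% Poisson intervals of neighbours in that order did not meet. In NIK(KA), Icam1 came first and was followed by Cxcl10 and Cxcl1, whose intervals met (5.39 to 7.95 FPKM for Cxcl10 and 4.57 to 7.24 FPKM for Cxcl1). In β-Gal, Cxcl1 came first with 34.4 to 40.4 FPKM, before Cxcl10 with 27.3 to 32.2 FPKM and Icam1 with 13.2 to 15.3 FPKM. Transcripts at 0 or 1 read, and Ccl2 with 4 reads in β-Gal, could not be ordered among themselves beyond counting error. Ranked by FPKM among all 34340 gene models, Cxcl1 stood at place 221 in NIK, 9841 in NIK(KA) and 3079 in β-Gal. Icam1 stood at place 278 in NIK, 8451 in NIK(KA) and 6515 in β-Gal.

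The upstream sequences of these genes are shown because the 6 transcripts were all highest in one library and are known targets of NF-κB. RefSeq sequence of the rat assembly GRCr8 was matched by symbol for 4 of the 6 genes, Cxcl1, Cxcl10, Icam1 and Vcam1; Ccl5 and Ccl2 are named only. Up to 250 bases before the transcript start are printed in lower case, and positions are counted back from the base before that start, which is -1. Capitals mark the 9 letters GGNNNTTCC on either strand, a loose form of the κB site, and the interferon-stimulated response element, searched as GAAANNGAAA on either strand. For Icam1 the 93 bases that lie outside the gene's RefSeq span are printed.
Cxcl1 (GRCr8, chr14:17479322-17479571, minus strand): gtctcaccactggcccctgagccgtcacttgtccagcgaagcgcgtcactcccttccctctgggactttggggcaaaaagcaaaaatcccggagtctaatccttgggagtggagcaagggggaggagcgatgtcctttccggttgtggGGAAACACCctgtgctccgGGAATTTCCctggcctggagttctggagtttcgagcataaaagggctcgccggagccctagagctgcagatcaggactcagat
Cxcl10 (GRCr8, chr14:15988816-15989065, plus strand): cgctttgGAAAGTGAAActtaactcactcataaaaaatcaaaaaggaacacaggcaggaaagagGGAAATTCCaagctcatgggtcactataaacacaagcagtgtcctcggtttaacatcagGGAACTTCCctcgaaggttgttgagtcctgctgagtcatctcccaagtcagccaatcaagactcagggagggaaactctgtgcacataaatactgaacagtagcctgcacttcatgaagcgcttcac
Icam1 (GRCr8, chr8:27829595-27829687, plus strand): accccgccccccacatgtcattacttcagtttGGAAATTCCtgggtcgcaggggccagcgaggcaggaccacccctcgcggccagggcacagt
Vcam1 (GRCr8, chr2:206742784-206743033, minus strand): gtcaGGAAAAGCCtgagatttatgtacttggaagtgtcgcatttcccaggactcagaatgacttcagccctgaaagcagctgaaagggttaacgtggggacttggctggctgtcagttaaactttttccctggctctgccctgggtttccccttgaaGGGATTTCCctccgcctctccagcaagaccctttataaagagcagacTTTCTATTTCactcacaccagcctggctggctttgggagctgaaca

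All 4 upstream windows held the 9-letter pattern. So did 15.4% of the 33465 RefSeq windows of the same 250 bases. Its letters were chosen after these sequences had been read, so the count of 4 is a description. The 10-letter NF-κB consensus, which overlaps the 9-letter pattern in every match found here, was present in 3 of the 4 windows and in 6.33% of all windows. These genes are known NF-κB targets, so that count is a description too. In Cxcl1 the consensus was met as GGGAATTTCC at -84 to -75. In Cxcl10 it was met at 2 places, as GGGAAATTCC at -187 to -178 and as GGGAACTTCC at -128 to -119. In Vcam1 it was met as GGGATTTCCC at -93 to -84.

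The Icam1 window did not hold the consensus letters. Its 9-letter matches lay at -218 to -210, as GGAAATTCC, and at -149 to -141, inside the gene's RefSeq span. The start from which Icam1 positions are counted lies inside that span too. Cxcl10 holds the letters GGAAATTCC too, within its upstream consensus match. The interferon-stimulated response element was met in Cxcl10 at -243 to -234 and in Vcam1, on the other strand, at -46 to -37, and in 3.41% of all windows. A match is a match of letters only, and no binding was measured in these samples. In GRCr8 the protein-coding neighbours of Cxcl10 are Cxcl11 and Cxcl9, those of Icam1 include Icam4, and Cxcl2 lies next to Cxcl1. These neighbours are chemokine or adhesion genes too, but their IDs could not be matched and no values are given for them.

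**Figure D2:**
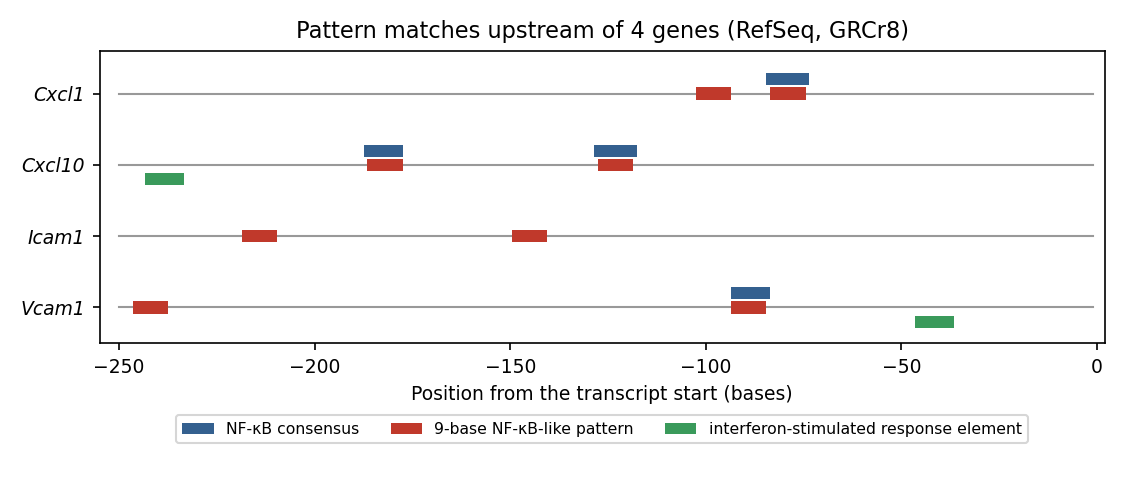
Places of 3 sequence patterns in the 250 bases before the transcript start of Cxcl1, Cxcl10, Icam1 and Vcam1, in bases from the start. Bars show the NF-κB consensus (upper), the 9-base pattern (middle) and the interferon-stimulated response element (lower); Icam1 has the 9-base pattern alone, at 2 places, of which the one nearer the start lies outside the printed stretch.

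The first comparison asked how the 6 transcripts stood when NIK was overexpressed, with β-Gal as the control. All 6 were at least 2-fold higher in NIK on the log2(FPKM + 1) scale. Of the 11171 gene models with at least 5 FPKM in at least 1 library, 6.73% were higher by at least 2-fold in the NIK library and 4.10% were lower by that much. Ccl2 is not among these gene models. Ccl5 and Vcam1 are among them only because they reached 5 FPKM in NIK, so the count of 6 is a description. The median log2 ratio of the 6 was 3.003 (range 1.47 to 4.29), and that of the gene models compared was 0.02. With Ccl5 and Vcam1, both at 0 reads in β-Gal, set to the level of 3 reads there, the median FPKM ratio of the 6 was 14.0-fold.

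On the log2(FPKM + 1) scale Icam1 had the highest ratio of the 6, at 4.29, and stood at place 21 of the 11171 gene models from the highest. That rank among the 6 rests on the pseudocount: Vcam1 was above Icam1 with a pseudocount of 0.1 (6.88 for Vcam1 and 4.37 for Icam1), with one of 0.5 and with FPKM rescaled to equal sums. Its FPKM in NIK was 20.8-fold that in β-Gal, with an exact 95% counting interval of 19.3 to 22.6. Such intervals come from the split of the reads between 2 libraries and cover counting error only. The FPKM of Cxcl1 was 9.80-fold higher in NIK (9.01 to 10.7), place 63, and that of Cxcl10 was 4.62-fold higher (4.22 to 5.07), place 196. The intervals of Icam1, Cxcl1 and Cxcl10 did not meet, so these ratios differed from each other by more than counting error.

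For the rarer transcripts the ratio was less precise. Ccl2 in NIK was at 9.25 times its β-Gal level, with an interval of 3.28 to 36.0 that meets those of Icam1, Cxcl1 and Cxcl10. Against the level of 3 reads in β-Gal, Vcam1 was at least 59.7-fold higher in NIK and Ccl5 at least 18.1-fold higher. These bounds are without counting error in the NIK library. On the log2(FPKM + 1) scale Vcam1 had a ratio of 3.67 (place 39) and Ccl5 one of 2.75 (place 103). That scale holds down transcripts near 0. Both reached 5 FPKM in the NIK library alone, so they could be given a place among the gene models compared only by being high there, and the places are descriptions. Ccl2, at 1.47, had under 5 FPKM in every library and was given no place. With a pseudocount of 5 in place of 1, its log2 ratio was 0.52, under 2-fold.

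**Figure D3:**
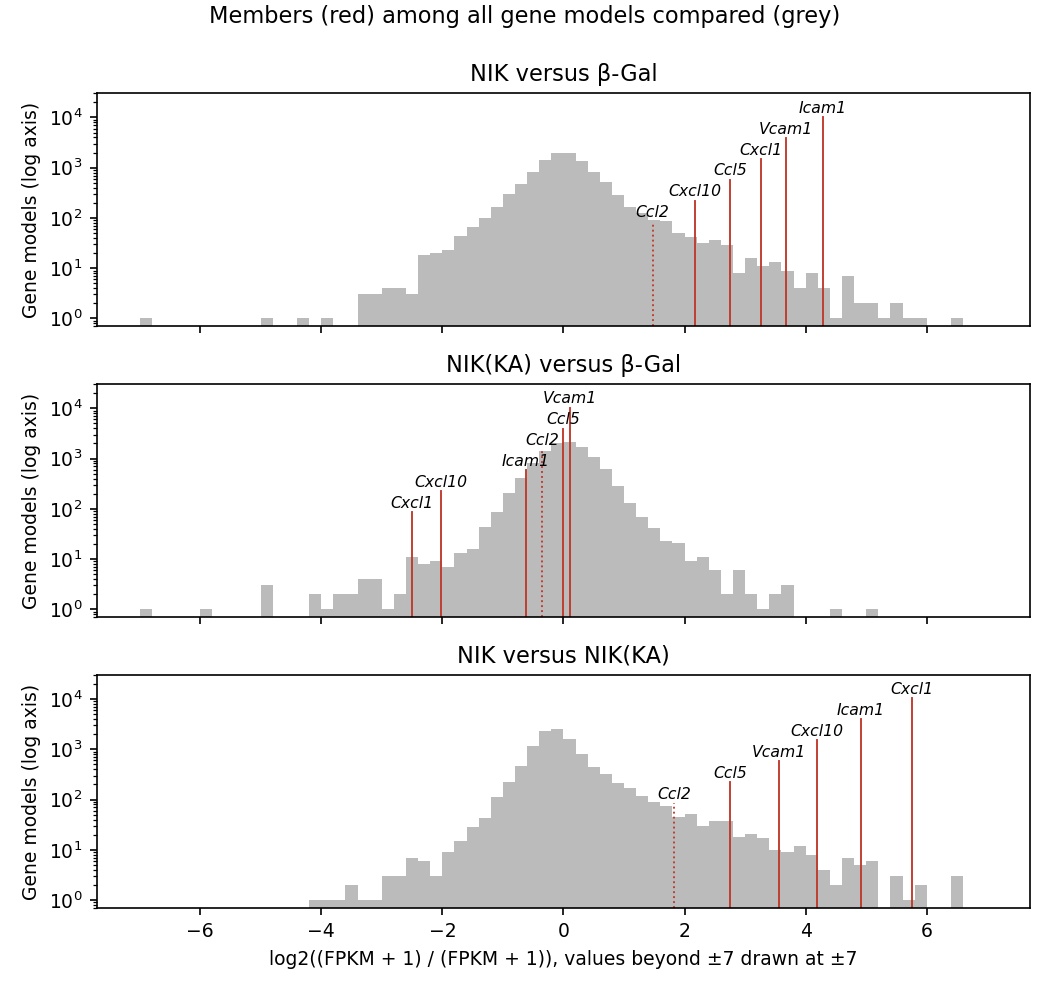
Number of gene models (log axis) by log2 ratio on the log2(FPKM + 1) scale for the 11171 gene models compared (grey), with the 6 transcripts in red; Ccl2 is dotted because it did not reach 5 FPKM. All 6 lie on the higher side in NIK versus β-Gal and in NIK versus NIK(KA), and Cxcl1 and Cxcl10 lie on the lower side in NIK(KA) versus β-Gal.

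The second comparison set NIK(KA) against the same β-Gal library. Cxcl1 and Cxcl10 were at least 2-fold lower in NIK(KA), 2 of the 6 transcripts, and none of the 6 was at least 2-fold higher. Of the 11171 gene models compared, 1.95% were lower by at least 2-fold in the NIK(KA) library and 2.97% were higher by that much. The median log2 ratio of the 6 was -0.48 and that of the gene models compared was 0.05. The first of these includes Ccl5, Ccl2 and Vcam1, whose recovered read numbers, which are lower limits, were at most 4 in either library. Their ratios are held near 0 by the pseudocount, so nothing is read from that median. Cxcl1 had an NIK(KA) to β-Gal FPKM ratio of 0.155 (0.121 to 0.197) and a log2 ratio of -2.49, place 30 from the lowest. Cxcl10 had an FPKM ratio of 0.222 (0.179 to 0.273) and a log2 ratio of -2.02, place 49 from the lowest. The intervals of the chemokines Cxcl1 and Cxcl10 met.

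The level of Icam1 was lower in NIK(KA) too, by less than 2-fold. Its FPKM ratio was 0.627 (0.548 to 0.716), an interval that excludes 1 and does not meet those of Cxcl1 and Cxcl10, and its log2 ratio was -0.62. Ccl2 had 0 reads in NIK(KA) and 4 in β-Gal, and the interval of its ratio, from 0 to 1.84, includes 1. Ccl5 and Vcam1 had recovered read numbers of at most 1 in both libraries, so no ratio is given and a difference was not detectable at this depth.

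**Figure D4:**
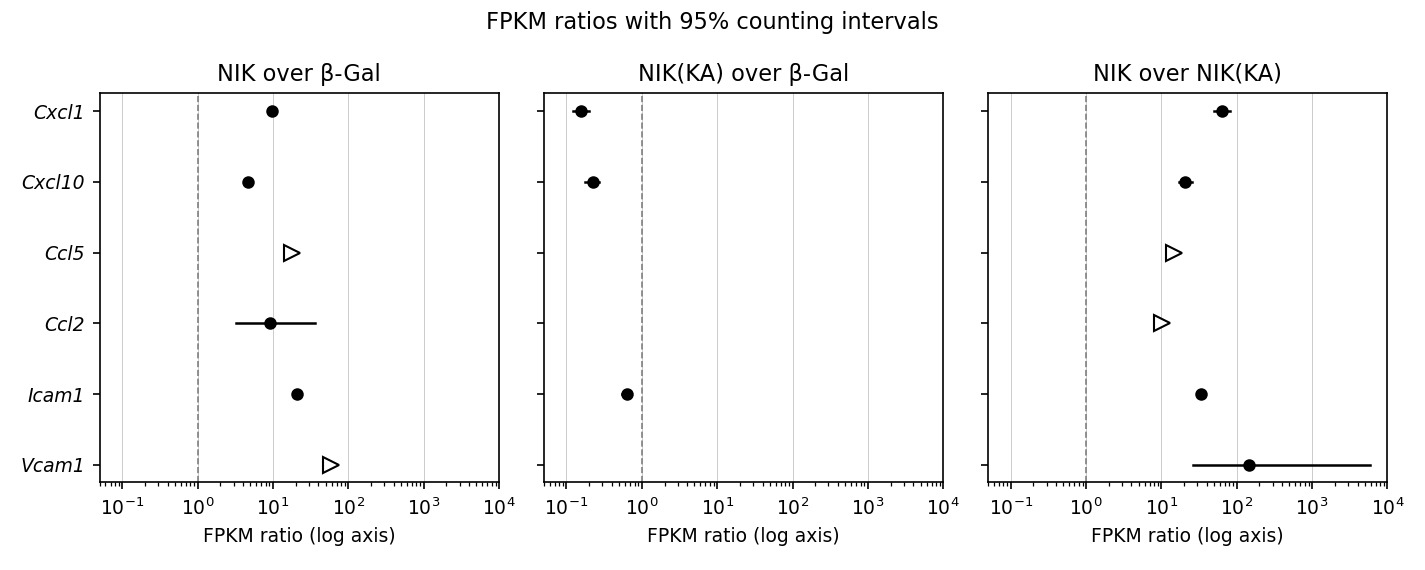
FPKM ratios of the 6 transcripts on a log axis for NIK over β-Gal, NIK(KA) over β-Gal and NIK over NIK(KA), 1 library each. Points carry exact 95% counting intervals. Open triangles are lower bounds against 3 reads where the second library had 0, without counting error in the first library. The dashed line marks a ratio of 1, and in NIK(KA) over β-Gal no point is drawn for Ccl5, Ccl2 and Vcam1.

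Next, the NIK library was compared with the NIK(KA) library, that is, 2 forms of the kinase with each other. All 6 transcripts were at least 2-fold higher in NIK, compared with 6.97% of the 11171 gene models. Of the gene models, 2.11% were at least 2-fold lower. Ccl2 is not among those gene models, and Ccl5 and Vcam1 are only through their level in NIK, so the count of 6 is a description. The median log2 ratio of the 6 was 3.87 (range 1.82 to 5.75), and that of the gene models compared was -0.12. With Ccl5 and Ccl2 set to 3 reads in NIK(KA), the median FPKM ratio of the 6 was 27.0-fold. The comparisons of NIK with β-Gal and with NIK(KA) share the NIK library, and the comparisons against β-Gal share that library, so their counts are not independent of each other.

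On the log2(FPKM + 1) scale Cxcl1 had the highest ratio of the 6 between NIK and NIK(KA); with a pseudocount of 0.1 Vcam1 passed it, at 6.04 for Vcam1 and 5.96 for Cxcl1. The FPKM of Cxcl1 was 63.1-fold higher in NIK (50.4 to 80.1), with a log2 ratio of 5.75, place 6 of 11171 from the highest. Icam1 was 33.2-fold higher (29.8 to 37.2), place 16, and Cxcl10 20.9-fold higher (17.2 to 25.6), place 34. The intervals of Cxcl1, Icam1 and Cxcl10 did not meet. In NIK versus β-Gal the order was Icam1 before Cxcl1 before Cxcl10, so Cxcl1 and Icam1 changed places between the 2 comparisons.

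The remaining transcripts rested on few reads in NIK(KA). Vcam1 was 147-fold higher in NIK, with 155 reads against 1 and an interval of 26.1 to 5857; both read numbers may be too low by a common factor, which would make that interval too wide. Against the level of 3 reads in NIK(KA), Ccl5 was at least 14.9-fold higher in NIK and Ccl2 at least 10.1-fold higher, again without counting error in the NIK library.

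Likeness to Icam1, taken because its log2(FPKM + 1) ratio in NIK versus β-Gal was the largest of the 6 with a pseudocount of 1 (Vcam1 would be taken under the alternatives named above), was measured as the Euclidean distance between levels on the log2(FPKM + 1) scale over the 3 libraries. Other than the 6 transcripts, the nearest of the 11171 gene models was ENSRNOG00000019206, at a distance of 0.439. It had 359 FPKM in NIK, 11.4 FPKM in NIK(KA) and 13.2 FPKM in β-Gal, and stood 27.1-fold above β-Gal in NIK (23.0 to 32.2). The next was ENSRNOG00000000768, at 0.924, with 261 FPKM in NIK, 16.4 FPKM in NIK(KA) and 19.1 FPKM in β-Gal, a ratio of NIK to β-Gal of 13.7-fold (11.96 to 15.7). Their NIK(KA) to β-Gal ratios had intervals of 0.666 to 1.12 and 0.700 to 1.05. Both intervals include 1, and both meet that of Icam1 (0.548 to 0.716), which excludes 1. These gene models were picked by their levels in the same libraries, so ratios like those of Icam1 follow from the choice. Among the 6, Cxcl1 and Cxcl10 lay 1.45 apart by the same measure, and Vcam1 and Ccl5 lay 0.927 apart. Vcam1 and Ccl5 had recovered read numbers of at most 1 in NIK(KA) and β-Gal, so their distance rests almost only on the NIK library. For Cxcl1, Cxcl10 was the nearest of all gene models compared, with Icam1 nearly as near at 1.47. The reverse did not hold: 12 gene models lay nearer to Cxcl10 than Cxcl1 did. Nearer to Vcam1 than Ccl5 was lay 36 gene models, and 39 lay nearer to Ccl5 than Vcam1 did.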

How the data were processed

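RNA sequencing of 3 libraries was used, grouped by sample title. The authors deposited 1 FPKM value per gene model and library. The submitters' processing notes name TopHat2 and HTSeq 0.6.1, and the mouse build GRCm38, whereas the rows are rat Ensembl IDs; the build behind the values is thus unsettled. The sources used here do not give strandedness, filters or the treatment of reads that fit several gene copies, which bears on chemokines with similar neighbours. The 6 transcripts, the comparisons and the thresholds were chosen with earlier results of these data known.

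Read numbers were recovered from the FPKM steps as the lowest whole numbers with 1 length per gene model, within 1e-06 of the read number (or of 1 read) and lengths of at most 100000 bases. All 22026 gene models above 0 came out whole (100%), against 0.0774% of a subset above 0 in at least 2 libraries with totals wrong by 1 part in 10000. The lowest numbers hold 95.9% (NIK), 95.9% (NIK(KA)) and 96.1% (β-Gal) of the totals. Ratios are of FPKM, with exact Clopper-Pearson 95% intervals on the split of the reads, or log2((FPKM + 1) / (FPKM + 1)) with 2-fold as the threshold. A count of 0 was read as at most 3 reads. Intervals cover counting error only, since there is 1 library for each protein. They take reads as independent, which reads need not be, and may then be too narrow. Recovery and counts were also run on simulated data in which only gene models with many expected reads were changed. Changes and intervals at few reads, as for Ccl5, Ccl2 and Vcam1, were thus not tested there. The rule for other named gene models was the 2 nearest to the one of the 6 with the largest log2(FPKM + 1) ratio in NIK versus β-Gal, a choice that depends on the pseudocount. The lists of other chemokines, receptors, adhesion, NF-κB and interferon genes and of cell markers needed symbols and were not run. Python 3.11.15, SciPy 1.17.1, pandas 2.3.3 and numpy 2.4.6 were used. Alternatives were other pseudocounts, minimum FPKM values, fold thresholds and scalings.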

Additional observations from a re-analysis of the deposited data

Results flagged for a closer look

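Of the 6 transcripts, 3 lay on opposite sides of β-Gal in the NIK and NIK(KA) libraries, with counting intervals that exclude 1 on both sides. The share of all gene models that do so was not counted, so the 3 are a description. The log2 ratio of NIK to β-Gal minus that of NIK(KA) to β-Gal was 5.75 for Cxcl1, 4.19 for Cxcl10 and 4.91 for Icam1, on the log2(FPKM + 1) scale. The difference was not tested, because there is 1 library for each protein. The β-Gal level cancels in this difference, so these values are the log2 ratios of NIK to NIK(KA) given above and no separate result.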

How the results depend on the processing

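No paired analysis was possible because each group holds 1 library. All 6 transcripts kept their direction in NIK versus β-Gal and in NIK versus NIK(KA) under every alternative. A pseudocount cannot change the sign of a ratio. Scalings shifted log2 ratios without a pseudocount by at most 0.0889. The kept direction is thus no separate support. Of 108 alternative ratios, 82 stayed within the half-width of the counting interval. Ratios without a finite interval took the median half-width of the others in their comparison. These were Ccl5 throughout, Vcam1 in both comparisons with β-Gal, and Ccl2 in both with NIK(KA). Ccl5 in NIK(KA) versus β-Gal was 0 under every alternative by construction. Scalings moved the ratios of Cxcl1, Cxcl10 and Icam1 by little: in NIK versus β-Gal they ranged from 3.22 to 3.29, 2.14 to 2.20 and 4.25 to 4.34. A pseudocount of 5 took Ccl2 to 0.52 in NIK versus β-Gal and 0.59 in NIK versus NIK(KA), under 2-fold, and at a 3-fold threshold Ccl2 also missed in NIK versus β-Gal. In NIK(KA) versus β-Gal no ratio changed sign either, with the same limit. A pseudocount of 0.1 put Ccl2 past 2-fold lower there (-1.90), and a 1.5-fold threshold added Icam1 to the lower ones. The median log2 ratio of the 6 with pseudocounts of 0.1, 0.5 and 5 and with equal sums (TPM) was 3.83, 3.46, 1.89 and 3.35 in NIK versus β-Gal and 5.45, 4.34, 2.67 and 4.23 in NIK versus NIK(KA); in NIK(KA) versus β-Gal a pseudocount of 0.1 gave -1.29. A pseudocount enters these medians by construction, and equal sums raise all FPKM against it.

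Counts over all gene models that left 1.5 times the reported ones were as follows. Higher in NIK than in β-Gal there were 465 with a pseudocount of 5, 1192 with a minimum of 1 FPKM or none, 359 with 20, 1599 at 1.5-fold and 370 at 3-fold; lower there were 215, 705, 216, 1282 and 129 in the same order. In NIK(KA) versus β-Gal, those higher numbered 129, 800, 137, 1288 and 90, and 546 with equal sums, and those lower 93, 372, 119, 885 and 71. Higher in NIK than in NIK(KA) there were 516 with a pseudocount of 5, 402 with 20 FPKM, 1345 at 1.5-fold and 411 at 3-fold; lower there were 57, 78, 989 and 55, with 556 at a minimum of 1 FPKM or none and 400 with equal sums. Depth limits Ccl5, Ccl2 and Vcam1 in NIK(KA) and β-Gal, where their recovered read numbers, which are lower limits, were at most 4.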
